A study of Mus musculus with 12 samples.

Results

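The first hour after poly(I:C) is described here, as the arrays taken at 1 h against those taken at 0 h, each pair of arrays coming from 1 experiment. These are 4 of the 12 arrays of the time course, and all 45037 non-control probe sets were compared on them. The cells at 1 h were bone marrow-derived dendritic cells (DC) of C57BL/6 mice, cultured for 6 days with GM-CSF and then treated for 1 h with poly(I:C), which mimics viral double-stranded RNA. The cells at 0 h were the same culture before poly(I:C). The labels give 10 ng/ml GM-CSF and 2.5 µg/ml poly(I:C), the methods of the study give higher doses of both, and its supplement gives the label's dose of poly(I:C) for a staining experiment, so the dose is not settled. The age of the mice is 8 to 10 weeks in one label and 3 to 4 months in another. According to the methods the mice were female and the cells were selected for CD11c. Experiments 1 and 2 (the replicate numbers of the labels) used 1 mouse each and were hybridised and normalised apart, so n = 2 at each time, which limits the precision. No array holds cells kept for 1 h without poly(I:C), so the effect of poly(I:C) and of 1 h of culture with its handling cannot be told apart.

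Double-stranded RNA is sensed in DC by Toll-like receptor 3 in endosomes and by RIG-I and MDA5 in the cytosol. These receptors activate the transcription factors NF-kB, AP-1 and IRF3. Their first target genes need no new protein and are called immediate-early or primary response genes, among them those of inflammatory cytokines, of chemokines and of the IkB proteins that restrain NF-kB. Type I interferon made in this phase then drives the interferon-stimulated genes in a second wave.

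At 1 h 9 genes rose, those of the cytokines IL-6, IL-1α, TNF and 4-1BB ligand, of the chemokines CXCL10 and CXCL1, of the NF-kB regulators IkBζ and A20, and the host gene of miR-155. They were 12 of the 22519 probe sets tested (0.0533%), the test being limma with Benjamini-Hochberg adjustment at 0.05 on log2(signal + 16). No probe set fell at that level, while 266 were higher and 173 lower at an unadjusted p under 0.05. By gene, 201 of the 10985 tested (1.83%) had such a p in either direction, a smaller share than the threshold of 0.05 itself. Time and experiment (the replicate block) were the terms of the model, and with no replicate block 0 probe sets passed in either direction. Between 2 and 31 probe sets passed as higher when 1 array of the 12 was left out, the fewest without the 1 h array of experiment 1 and the most without the 24 h array of experiment 1. Il6 and Nfkbiz passed whichever array was left out. Of the other 7 genes only Cxcl10 passed without the 0 h array of experiment 1, only Tnfsf9 without the 0 h array of experiment 2, and none without the 1 h array of experiment 1. Tnfsf9, Cxcl10 and Cxcl1 passed without the 1 h array of experiment 2, and these and Il1a without any one later array. Mir155hg and Tnfaip3 did not pass without either array of 3 h or 6 h, nor did Tnf, which also did not without either of 12 h. In data simulated from the fitted model, the test recovered 17.4% of 2-fold and 66% of 4-fold changes between 1 h and 0 h. The simulation assumed normal errors and the same spread at all times, which the real arrays need not follow, so these shares are only a guide. A gene that did not pass is not thereby unchanged.

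Il6 had the largest change. It encodes interleukin 6, a cytokine of the acute phase and of T cell help. Its signal was 2276 and 1014 at 1 h in experiments 1 and 2, against 49.9 and 5.23 at 0 h. Both arrays at 1 h were far above both at 0 h, and the log2 fold change was 5.36 ± 0.40 (SE, adjusted p = 0.000939), a 41.1-fold difference on this scale. The signals at 0 h lay in the dim part of the arrays, where 21.2% and 21.3% of all signals were below 16, and the pseudocount of 16 therefore holds this fold down.

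Il1a encodes interleukin 1α, an alarm cytokine that can act from the cell surface. It had signals of 7894 and 10796 at 1 h, against 1499 and 2023 at 0 h. The ratios of both experiments were nearly equal, with log2 values of 2.38 and 2.41 (fitted 2.40 ± 0.27, SE, adjusted p = 0.0124). Tnf, the gene of tumor necrosis factor, had 11628 and 10178 at 1 h, against 3221 and 2715 at 0 h. It was already bright before poly(I:C), and its log2 fold change was 1.87 ± 0.24 (SE, adjusted p = 0.0232).

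Tnfsf9 encodes 4-1BB ligand, which costimulates T cells. It had 1345 and 1661 at 1 h, against 133 and 373 at 0 h, with log2 ratios of 3.19 in experiment 1 and 2.11 in experiment 2 (fitted 2.65 ± 0.27, SE, adjusted p = 0.00662). The experiments differed in the signal at 0 h more than in that at 1 h.

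**Figure D1:**
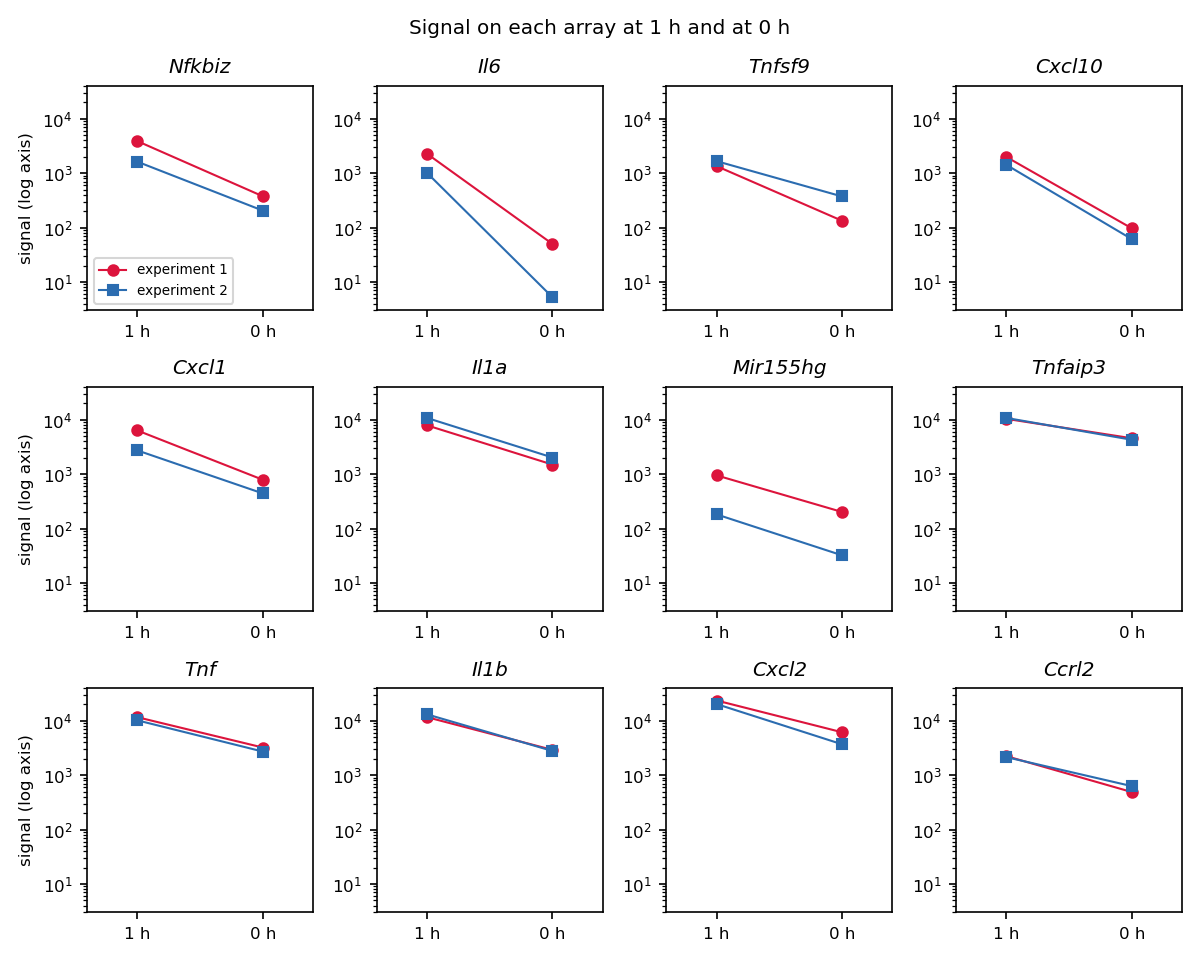
Signal on each array (vertical log axis, arbitrary units of the array) at 1 h (left) and 0 h (right) for the 9 genes that rose and for Il1b, Cxcl2 and Ccrl2, which did not pass the test. Each line joins the arrays of 1 experiment. All 24 lines slope down towards 0 h, by 2.27-fold at the least (Tnfaip3 in experiment 1).

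Of 20 cytokine and growth factor genes tested, these 4 rose, none fell, and the median log2 fold change was 0.49, against -0.02 over all 10985 genes tested, of which 9 (0.0819%) rose. Il1b, the gene of interleukin 1β, came next by p-value in this test and did not pass. Its signals were 11644 and 13120 at 1 h, against 2912 and 2783 at 0 h, and its log2 fold change of 2.11 ± 0.33 (SE) had an adjusted p of 0.108. Without either of the 12 h or either of the 24 h arrays it passed.

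The genes of both chains of interleukin 12 differed less evenly between experiments. Il12b, of the p40 chain, had 827 and 126 at 1 h, against 50.2 and 50.5 at 0 h. A second probe set of Il12b (1449497_at) had 341 and 156 at 1 h, against 33.1 and 27.8 at 0 h. All 4 signals at 1 h were above all 4 at 0 h, but experiment 1 showed the larger change on both probe sets. Il12a, of the p35 chain, had 150 and 110 at 1 h, against 57.0 and 56.1 at 0 h. Ereg, the gene of the growth factor epiregulin, had 472 and 64.3 at 1 h, against 46.2 and 23.4 at 0 h. None of these passed, though the second probe set of Il12b did without either 24 h array and with only the 4 arrays at 1 h and 0 h.

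Inhba, the gene of the activin A subunit, showed a small change on bright signals, with 17446 and 13822 at 1 h, against 11067 and 8965 at 0 h. Its log2 fold change was 0.64 ± 0.13 (SE) and its adjusted p 0.622. Csf1, Ebi3, Hbegf, Vegfa and Il18 had fitted log2 changes between -0.34 and 0.05. Il10, Il23a, Lif, Csf2, Csf3, Cd40lg and Ltb were too dim to be tested.

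Cxcl10 and Cxcl1 were the 2 of 20 chemokine genes tested that rose (0.0819% of all genes tested did). CXCL10 attracts T cells and natural killer cells that carry CXCR3. Cxcl10 had 1988 and 1424 at 1 h, against 96.8 and 61.3 at 0 h. Its log2 ratios were 4.15 and 4.22 in the experiments (fitted 4.19 ± 0.43, SE, adjusted p = 0.00662). CXCL1 attracts neutrophils through CXCR2. Cxcl1 had 6359 and 2733 at 1 h, against 789 and 443 at 0 h, a log2 fold change of 2.78 ± 0.29 (SE, adjusted p = 0.00662).

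Cxcl1 has 3 probe sets, and only that one passed. The second (1419209_at) had 4058 and 1899 at 1 h, against 750 and 288 at 0 h, with an adjusted p of 0.252. The third (1441855_x_at) had 1700 and 1081 at 1 h, against 727 and 646 at 0 h. All 3 were higher at 1 h in both experiments, the third by the least.

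Cxcl2, whose product also binds CXCR2, reached 23556 and 20257 at 1 h, against 6139 and 3691 at 0 h. Its log2 fold change of 2.19 ± 0.52 (SE) did not pass. Without either 12 h array, and with only the 4 arrays at 1 h and 0 h, Cxcl2 passed. Ccl5 had 2957 and 1078 at 1 h, against 1129 and 921 at 0 h, so that only experiment 1 showed a ratio above 2-fold. Ccl17 and Ccl22, also bright at 0 h, differed little. Ccl17 had 34038 and 28115 at 1 h, against 31198 and 24964 at 0 h, and Ccl22 had 11620 and 7225 at 1 h, against 10207 and 7223 at 0 h. The median over the 20 genes was 0.30, and 15 of them had a ratio above 1 in both experiments, where 23.0% of all genes tested had one (and 30.3% a ratio below 1 in both).

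**Figure D2:**
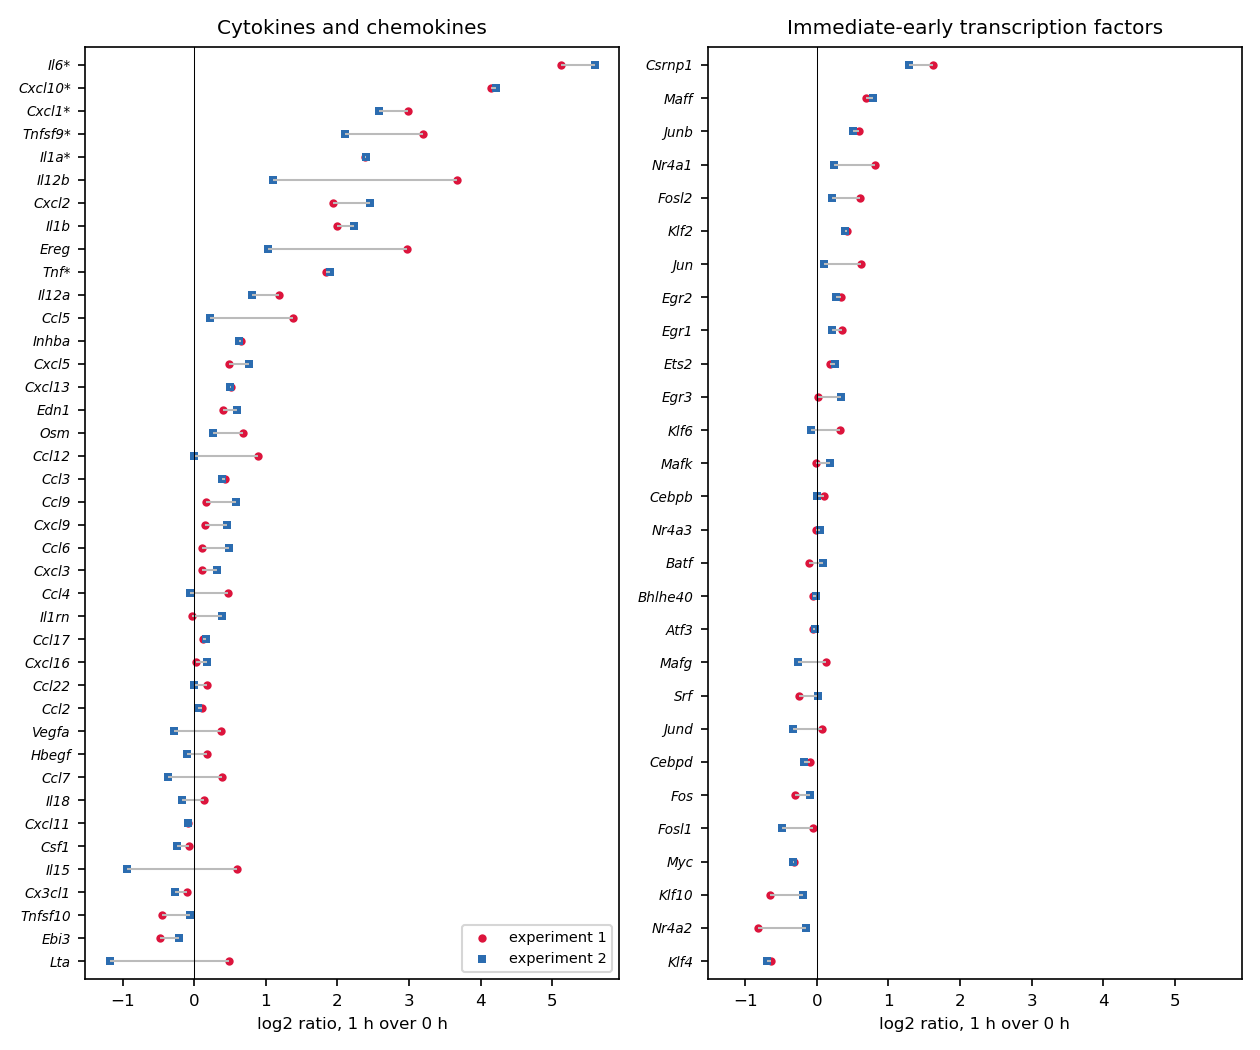
Log2 ratio of 1 h over 0 h in each experiment (horizontal axis) for each tested gene of the cytokine and chemokine lists (left) and of the immediate-early transcription factor list (right), ordered by the fitted log2 fold change; grey lines join both experiments and an asterisk marks an adjusted p under 0.05. Il6 lies at 5.12 and 5.60 on the left, while on the right the uppermost gene, Csrnp1, lies at 1.63 and 1.29 and no gene carries an asterisk.

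Nfkbiz passed the test on every probe set. It encodes IkBζ, a nuclear IkB protein that NF-kB induces and that is needed for a second set of NF-kB targets, Il6 among them. All 3 of its probe sets rose. The brightest (1417483_at) had 3884 and 1626 at 1 h, against 376 and 205 at 0 h, a log2 fold change of 3.10 ± 0.22 (SE, adjusted p = 0.000939). The second (1457404_at) had 3337 and 689 at 1 h, against 195 and 63.7 at 0 h, with 3.57 ± 0.39 (SE, adjusted p = 0.0106). The third (1448728_a_at) had 1200 and 575 at 1 h, against 173 and 65.8 at 0 h, with 2.77 ± 0.23 (SE, adjusted p = 0.00147). On each of them experiment 1 was the brighter at both times.

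Tnfaip3 encodes A20, a ubiquitin-editing enzyme that limits NF-kB signalling. It rose by less, on brighter signals, and on both of its probe sets. The first (1433699_at) had 10393 and 10806 at 1 h, against 4570 and 4287 at 0 h, a log2 fold change of 1.26 ± 0.16 (SE, adjusted p = 0.0221). The second (1450829_at) had 5723 and 5104 at 1 h, against 2311 and 1343 at 0 h, with 1.61 ± 0.22 (SE, adjusted p = 0.0399). When the arrays were centred on their medians the log2 fold changes were 1.25 and 1.61 and the adjusted p 0.056 and 0.0621, so that both calls were lost.

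Nfkbia, the gene of IkBα, the main cytosolic inhibitor of NF-kB, was among the brightest genes on the arrays and did not pass. Its brightest probe set had 25675 and 35189 at 1 h, against 15058 and 18780 at 0 h, a log2 fold change of 0.84 ± 0.24 (SE). The other 4 had log2 changes between 0.74 and 1.16, so that all 5 were higher at 1 h in both experiments. Without either 24 h array Nfkbia passed.

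Nfkbiz was the 1 of 10 genes of NF-kB subunits and IkB proteins tested that rose (0.0819% of all genes tested did). Of the others, Bcl3 (0.48 ± 0.21, SE) and Nfkbie (0.44 ± 0.19) had the next largest log2 changes, and the subunits Relb, Rel and Nfkb2 had 0.27, 0.23 and 0.13. Rela had 2596 and 2328 at 1 h, against 2675 and 2483 at 0 h. The median of the list was 0.26, and 9 of the 10 were above 0 in both experiments, as were 23.0% of all genes tested. Tnfaip3 was the 1 of 24 signalling nodes and inhibitors of the NF-kB pathway that rose, where the median was 0.13. Traf1, an adaptor of TNF receptors, had 2391 and 664 at 1 h, against 1048 and 360 at 0 h. Peli1, a ubiquitin ligase of Toll-like receptor pathways, had 1369 and 735 at 1 h, against 765 and 524 at 0 h. Neither passed, and the kinases Ikbkb, Ikbke and Tbk1 had log2 changes of -0.01, 0.17 and 0.14.

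Mir155hg is the primary transcript from which miR-155 is cut, a microRNA that activated immune cells make. It had 949 and 182 at 1 h, against 202 and 32.2 at 0 h, a log2 fold change of 2.09 ± 0.26 (SE, adjusted p = 0.0221). Experiment 1 was several-fold brighter at both times, while the log2 ratios of 2.15 and 2.04 were close. With 64 added to the signal in place of 16 its log2 fold change was 1.64 and the call was lost (adjusted p = 0.0583). The arrays measure the primary transcript and not the mature microRNA. Its 23 bases lie at chr16:84714143-84714165 on the + strand (RefSeq, GRCm38.p6) and are shown, with the seed (bases 2 to 8, which pair with targets) in capitals, as the product of the only microRNA gene that rose.

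mmu-miR-155-5p: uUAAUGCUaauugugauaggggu

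NF-kB binds near the start of many of these genes. To show the letters that they share, the 250 bases before each start in RefSeq (GRCm38.p6) were searched on both strands for the NF-kB consensus of 10 bases. An entry was found for 7 of the 9 genes that rose, and 4 of the 7 held it (Il6, Cxcl10, Cxcl1 and Tnfaip3), against 2225 of all 27025 genes in the table (8.23%). Of the 40 genes of the bright 2-fold members described further on, 32 had an entry and 11 held it (34.4%). The stretches around the matches follow, 5′ to 3′ on the strand of the gene, with the matches of either strand in capitals. Of the genes that rose, Il1a, Mir155hg and Tnf had an entry and no match, and Nfkbiz and Tnfsf9 had no entry. Cxcl2, Nfkbia and Ifnb1, whose change did not pass, are shown as well. They were picked from the 11 that held the consensus, so they do not stand for the genes that did not pass.

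Il6: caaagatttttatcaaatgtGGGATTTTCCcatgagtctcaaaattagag
Cxcl1: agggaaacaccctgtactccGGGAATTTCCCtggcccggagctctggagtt
Cxcl2: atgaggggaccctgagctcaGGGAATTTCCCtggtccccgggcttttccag
Cxcl10: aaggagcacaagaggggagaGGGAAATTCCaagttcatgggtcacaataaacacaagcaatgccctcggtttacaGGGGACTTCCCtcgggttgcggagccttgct
Tnfaip3: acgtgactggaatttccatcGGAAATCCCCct
Nfkbia: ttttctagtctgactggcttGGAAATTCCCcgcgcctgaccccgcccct
Ifnb1: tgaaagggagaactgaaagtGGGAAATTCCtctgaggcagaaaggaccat

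They lie at chr5:30013050-30013099 (Il6, + strand), chr5:90891154-90891204 (Cxcl1, +), chr5:90903782-90903832 (Cxcl2, +), chr5:92348963-92349068 (Cxcl10, -), chr10:19015411-19015442 (Tnfaip3, -), chr12:55492648-55492696 (Nfkbia, -) and chr4:88522881-88522930 (Ifnb1, -), all upstream of the first exon. Cxcl1 and Cxcl2 share the run GGGAATTTCCC, in which both strands match and overlap. In Cxcl10 the matches lie from 159 to 150 and from 104 to 94 bases before the start. Tnfaip3 has matches at 2 positions before the first of its 2 listed starts, of which the nearer is shown. AP-1 letters (TGANTCA) were held by 4 of the 7 genes (Il6, Cxcl10, Il1a and Tnfaip3) and by 7.82% of all genes. The core of the sites of interferon regulatory factors, AANNGAAA, was held by Cxcl10 and Mir155hg and by 23.9% of all genes. The palindromic CRE, TGACGTCA, was held by 0 of the 7 and by 1.77% of all genes. Such matches describe the letters of these windows only.

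A 2-fold limit without a test gives a wider picture. At 1 h 309 of the 45037 probe sets (0.686%) were at least 2-fold above 0 h in both experiments, and 250 (0.555%) were at least 2-fold below. These values chose the members, so they are a description. Of the 309, 54 were bright enough in the mean of all arrays to be tested (0.24% of those tested) and 255 were not. Of the 250, 22 were bright enough (0.0977%) and 228 were not. That mean includes the arrays at 1 h and 0 h; by the mean of the 8 later arrays alone, a filter added after seeing the data, 56 of the 309 and 25 of the 250 were at or above the median. The 54 bright members had a median signal of 412 at 1 h, against 77.9 at 0 h, and 17 of them passed 1000 on both arrays at 1 h. The 22 had a median of 42.3 at 1 h, against 128 at 0 h, and 0 of them passed 1000 on both arrays at 0 h. All 12 probe sets that passed the test were among the 54.

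Most of the change seen in one experiment was not seen in the other. In experiment 1, 402 of the tested probe sets were at least 2-fold higher at 1 h than at 0 h, of which 13.4% were so in experiment 2. In experiment 2, 272 were, of which 19.9% were so in experiment 1. At least 2-fold lower were 169 in experiment 1 and 648 in experiment 2, and 63 were 2-fold higher in one and 2-fold lower in the other. Across the tested probe sets, which are not independent replicates, the ratios of both experiments had a Pearson r of 0.052 and a Spearman rho of 0.035. Among the 6673 with a mean signal of 1000 or more they had 0.417 and 0.220. The points of each experiment share its 0 h array.

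**Figure D3:**
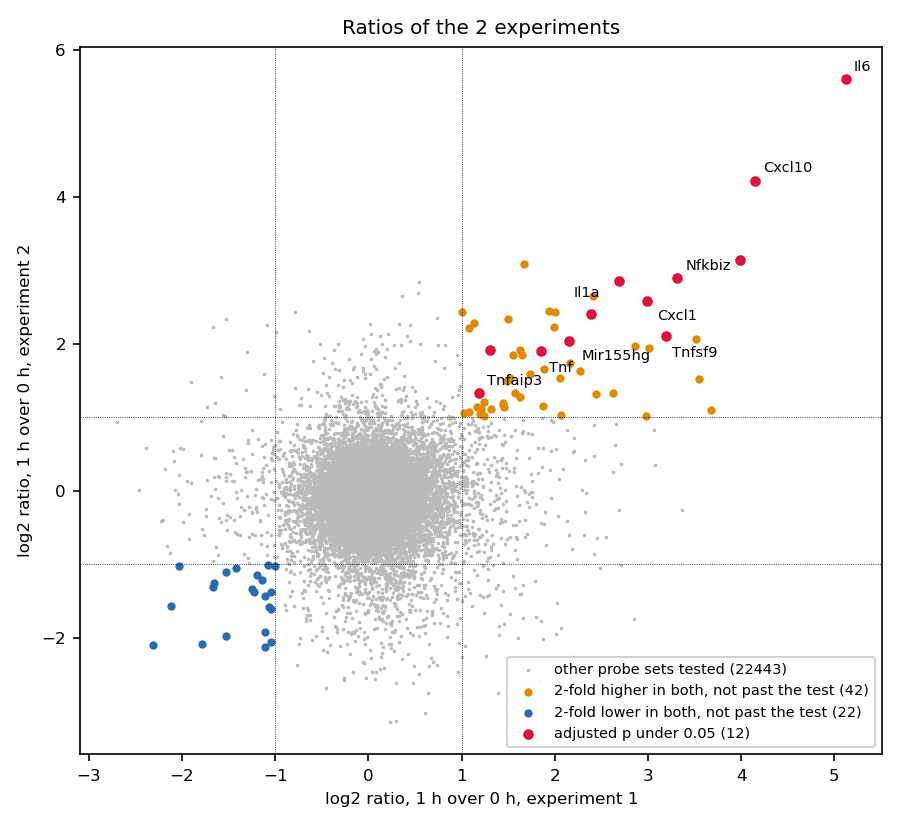
Log2 ratio of 1 h over 0 h in experiment 1 (horizontal) and experiment 2 (vertical) for the 22519 probe sets tested; dotted lines mark 2-fold. The 12 probe sets with an adjusted p under 0.05 lie towards the upper right corner, 42 others are 2-fold higher in both, 22 are 2-fold lower in both, and the rest form a round cloud.

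The 54 bright members carried 47 probe sets with 1 gene symbol, for 40 genes, and 7 with none or several. Of the 54, 12 were at least 4-fold higher in both experiments, and 47 had both 1 h arrays above both 0 h arrays, as had 8.74% of all probe sets tested. The 54 were chosen on these same arrays, which favours both counts, so they are a description only. At the limit itself the members were small or dim. Just inside lay St3gal6 (log2 ratios 1.01 and 2.43), Ddx60 (1.24 and 1.01) and Pgf (1.02 and 1.06). Just outside lay Auts2 (1.11 and 1.00), Pde7b (1.86 and 0.99) and Flrt3 (0.98 and 1.43).

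Several of the 54 that did not pass are known partners of this response. Ccrl2, a receptor that presents chemerin, had 2238 and 2145 at 1 h, against 489 and 628 at 0 h, with a log2 fold change of 1.95 ± 0.35 (SE, adjusted p = 0.299). Without either 24 h array, and with only the 4 arrays at 1 h and 0 h, Ccrl2 passed. Clec2d, the ligand of an inhibitory natural killer receptor, had 1296 and 575 at 1 h, against 98.7 and 125 at 0 h. The change was larger in experiment 1, with log2 ratios of 3.52 and 2.06. Pde4b, a cyclic AMP phosphodiesterase, had 1628 and 1221 at 1 h, against 762 and 572 at 0 h. Ptgs2, the gene of cyclooxygenase 2, had 374 and 78.9 at 1 h, against 90.5 and 26.5 at 0 h, and its second probe set (1417263_at) 293 and 126 at 1 h, against 83.1 and 23.6 at 0 h. Adm, the gene of the peptide adrenomedullin, was dim, with 134 and 71.3 at 1 h, against 2.61 and 6.64 at 0 h on one probe set (1416077_at) and 125 and 99.5 at 1 h, against 33.9 and 6.81 at 0 h on the other.

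For other members a brighter probe set of the same gene differed little. Plscr1 had 916 and 208 at 1 h, against 237 and 55.0 at 0 h on the probe set chosen (1457824_at), but 1170 and 791 at 1 h, against 920 and 705 at 0 h on its brightest (1453181_x_at). Becn1 had 132 and 255 at 1 h, against 30.7 and 15.9 at 0 h on 1 of its 5 probe sets (1435219_x_at), and 4462 and 3333 at 1 h, against 4857 and 3582 at 0 h on the brightest (1455880_s_at). Hsd17b11 had 1464 and 1956 at 1 h, against 430 and 640 at 0 h (1421011_at), with 6578 and 8815 at 1 h, against 5079 and 7144 at 0 h on the brightest (1434642_at). Cox8c, Pkmyt1, Ccdc180 and Zc3h7a also had 1 probe set 2-fold higher among 2 or 3. Of the genes with several probe sets, Nfkbiz (3 of 3), Il12b, Ptgs2, Adm and Tnfaip3 (2 of 2 each) had every one 2-fold higher in both experiments.

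The 10 lowest ratios with 1 gene symbol among the probe sets tested were of probe sets with at most 503 on any array at 0 h. Some dimmer probe sets, which were not tested, had lower ratios still, such as Pmel with log2 values of -2.15 and -2.17. Zap70, a kinase of T cell receptor signalling, had 88.3 and 72.9 at 1 h, against 503 and 365 at 0 h (1439749_at). Later it had 68.7 and 452 (3 h), 224 and 401 (6 h), 51.8 and 67.0 (12 h) and 709 and 730 (24 h). Its other probe sets, too dim to be tested, had log2 ratios of 1.95 and -0.53 (1440178_x_at) and of -0.58 and -1.34 (1422701_at). Msx3 had 23.7 and 15.8 at 1 h, against 121 and 118 at 0 h, with an adjusted p of 0.712, the smallest of the 10. Fadd, an adaptor of death receptors, had 17.0 and 60.7 at 1 h, against 127 and 212 at 0 h on this probe set (1446499_at), while its brighter one (1416888_at) had 523 and 701 at 1 h, against 460 and 552 at 0 h. None passed, and the probe sets of the other 7 (Shroom3, 4933406J09Rik, 1600014C10Rik, Fcsk, Adam11, Pnmal1 and Gng13) had at most 191 on any array at 0 h. The brightest probe set of 1600014C10Rik (1424444_a_at), not among the 10, had 697 and 601 at 1 h, against 871 and 860 at 0 h.

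The transcription factors of the classical immediate-early response gave no call. Of 28 genes of AP-1, EGR and related factors tested, 0 passed in either direction, 2 had an unadjusted p under 0.05 (as had 1.83% of all genes tested), and the median log2 fold change was 0.03. Csrnp1, a nuclear protein first found as induced by AXIN1, had the largest, with 1348 and 988 at 1 h, against 426 and 397 at 0 h (1.45 ± 0.25, SE, adjusted p = 0.225), and it passed without either 24 h array and with only the 4 arrays at 1 h and 0 h. Maff and Junb followed with 0.74 ± 0.31 and 0.55 ± 0.25 (SE). Fos had 1364 and 2007 at 1 h, against 1695 and 2138 at 0 h, and Egr1 had 1211 and 1280 at 1 h, against 941 and 1104 at 0 h. Several were bright before poly(I:C). Egr2 had 10225 and 10049 at 1 h, against 8059 and 8302 at 0 h, and Atf3 had 7779 and 7554 at 1 h, against 8072 and 7646 at 0 h. Jun had 2643 and 2342 at 1 h, against 1715 and 2179 at 0 h, and Myc 621 and 577 at 1 h, against 781 and 727 at 0 h. Fosb, Egr4 and Hes1 were too dim to be tested.

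Of the 27 other immediate-early genes tested, 0 passed, 8 had an unadjusted p under 0.05 (1.83% over all genes tested) and the median was 0.30. After Ccrl2 and Ptgs2 the largest changes were of Ier3, an early gene of cell survival, with 4317 and 5443 at 1 h, against 1657 and 3247 at 0 h (1.06 ± 0.23, SE, adjusted p = 0.765). Phlda1 had 8055 and 4744 at 1 h, against 3458 and 2844 at 0 h. The growth arrest gene Gadd45a had 737 and 1108 at 1 h, against 472 and 454 at 0 h, and Gadd45b had 1621 and 836 at 1 h, against 968 and 420 at 0 h. Gadd45g was lower at 1 h, with 376 and 204 at 1 h, against 687 and 458 at 0 h. Ier2, Ier5, Btg2 and Plk3 had log2 changes between -0.07 and 0.22.

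Feedback inhibitors of other pathways gave no call. Socs3, an inhibitor of cytokine receptor signalling, had 6365 and 5389 at 1 h, against 1626 and 3685 at 0 h, so that the difference lay mostly in experiment 1 (log2 ratios 1.96 and 0.55). Its other probe sets showed the same, with ratios of 1.60 and 0.55 (1456212_x_at) and 1.57 and 0.82 (1416576_at). The last of these passed without either 24 h array, and all 3 passed with only the 4 arrays at 1 h and 0 h. Socs1 and Cish had log2 changes of 0.53 ± 0.32 and 0.54 ± 0.33 (SE). The median over the 17 genes of this list was 0.06. Among 10 dual-specificity phosphatases, which switch off MAP kinases, Dusp1 had 5948 and 2949 at 1 h, against 4020 and 2255 at 0 h, and the median was 0.07. Among 14 mRNA decay factors, Zfp36, which destabilises cytokine mRNAs, had 3686 and 2703 at 1 h, against 1974 and 1907 at 0 h (0.70 ± 0.22, SE), and Zc3h12a, which cleaves them, had 687 and 580 at 1 h, against 531 and 268 at 0 h (0.72 ± 0.29). The median there was 0.06.

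Interferon genes gave no call. Ifnb1, the gene of interferon β, had 550 and 168 at 1 h, against 32.6 and 48.4 at 0 h. Both 1 h arrays were above both 0 h arrays, with log2 ratios of 3.54 and 1.52, but the fitted 2.53 ± 0.89 (SE) did not pass. Without either 24 h array, and with only the 4 arrays at 1 h and 0 h, Ifnb1 passed. Ifna2 had 127 and 12.3 at 1 h, against 10.8 and 4.27 at 0 h, and Ifna4 had 54.0 and 6.72 at 1 h, against 4.95 and 3.42 at 0 h. Genes of interferon α are near-identical copies that probe sets may not tell apart, and the signals in experiment 2 were below 16 at both times. Irf1, an early interferon regulatory factor, had 1674 and 1587 at 1 h, against 956 and 723 at 0 h (0.96 ± 0.28, SE). Irf7, which interferon itself induces, had 296 and 100 at 1 h, against 284 and 196 at 0 h.

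Of 39 interferon-stimulated genes tested, 0 rose, 5 had an unadjusted p under 0.05 (1.83% over all genes tested) and the median was 0.11. Ifit1, an antiviral RNA-binding protein, was foremost, with 402 and 187 at 1 h, against 84.1 and 83.5 at 0 h (1.55 ± 0.27, SE, adjusted p = 0.231). Oasl1 had 472 and 125 at 1 h, against 131 and 87.4 at 0 h, and Rsad2, the gene of viperin, had 750 and 233 at 1 h, against 243 and 193 at 0 h. Each was further from 0 h in experiment 1 than in experiment 2. When the 1 h array of experiment 2 was left out, Ifit1 and Rsad2 passed. The median log2 ratio of the list was 0.15 in experiment 1 and 0.01 in experiment 2, and the difference between experiments was not tested. Of 13 double-stranded RNA sensors and adaptors, Ifih1, the gene of MDA5, had 1480 and 874 at 1 h, against 613 and 559 at 0 h (0.94 ± 0.20, SE, adjusted p = 0.765). Ddx58, the gene of RIG-I, had 551 and 716 at 1 h, against 588 and 679 at 0 h, and Tlr3 had 137 and 138 at 1 h, against 114 and 185 at 0 h.

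**Figure D4:**
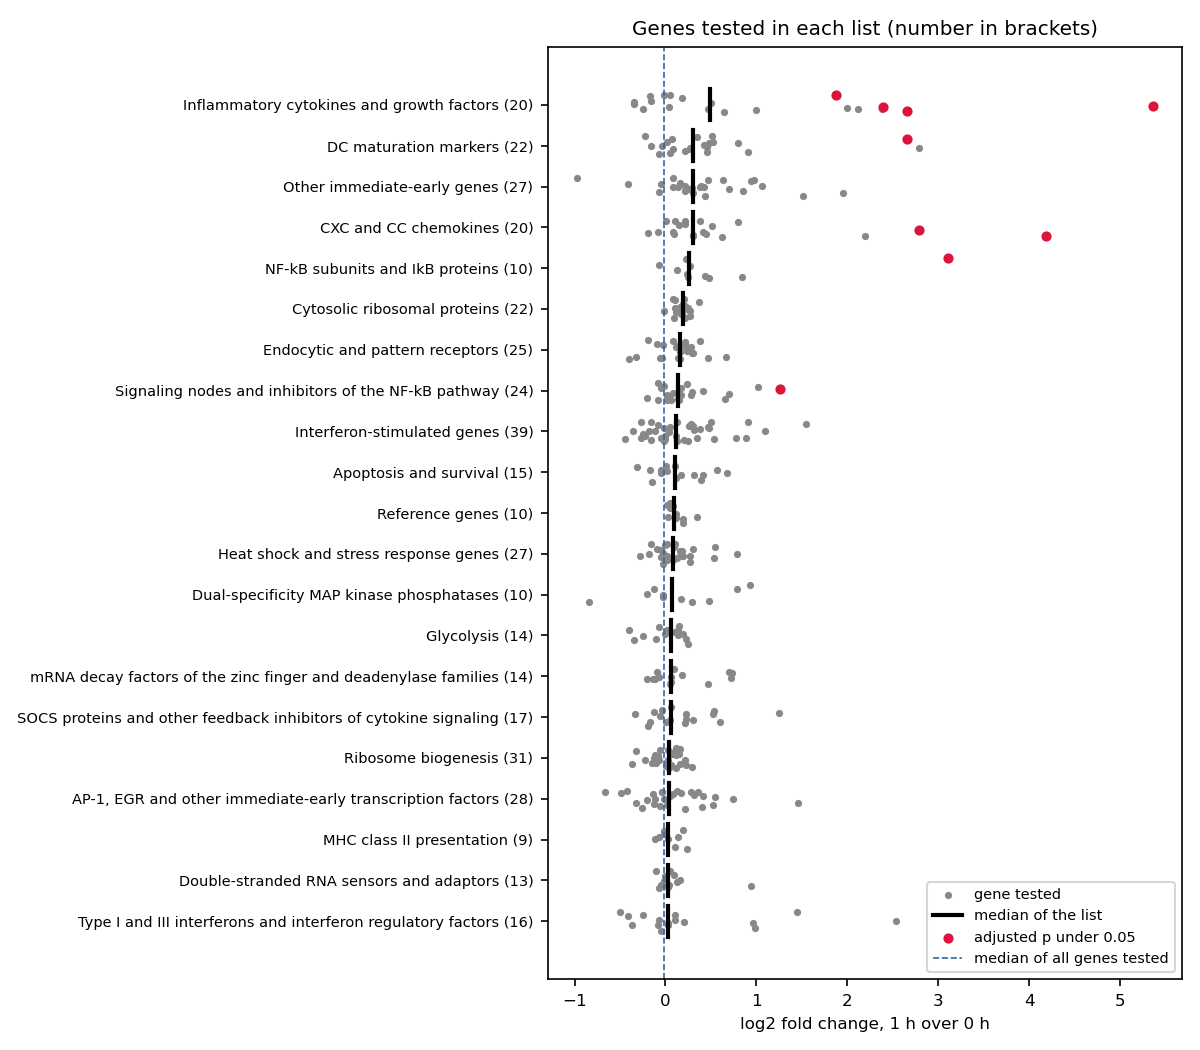
Fitted log2 fold change of 1 h over 0 h (horizontal axis) of every gene tested in each list, 1 probe set a gene, with the number of genes in brackets. Black bars are list medians, red points have an adjusted p under 0.05 and the dashed line is the median of all 10985 genes tested (-0.02). Red points stand in 5 of the lists, and list medians run up to 0.49 for the cytokines.

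Of 22 maturation markers of DC, Tnfsf9 alone rose (it is also in the cytokine list), where 0.0819% of all genes tested did. The median was 0.31. Cd80, a ligand of CD28, had 964 and 597 at 1 h, against 368 and 429 at 0 h, and Cd40 had 523 and 209 at 1 h, against 336 and 152 at 0 h. All 3 Cd80 probe sets tested were higher at 1 h in both experiments. Only 1 of them (1427717_at) was 2-fold higher in both, with 268 and 170 at 1 h, against 30.1 and 57.9 at 0 h. Cd86 had 1099 and 1080 at 1 h, against 1139 and 933 at 0 h, and Ccr7, the homing receptor of mature DC, had 609 and 39.9 at 1 h, against 272 and 149 at 0 h. Cflar, an inhibitor of caspase 8, led the 15 survival genes with 2310 and 1849 at 1 h, against 1345 and 1242 at 0 h (0.67 ± 0.17, SE). Clec4e, a receptor of damaged cells and of microbial glycolipids, led the 25 endocytic and pattern receptors with 16483 and 15735 at 1 h, against 10995 and 9370 at 0 h (0.67 ± 0.17, SE). In these lists, and in those of MHC class II, ribosome biogenesis and glycolysis, no further gene passed.

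By the methods the cells were plated in wells and treated with poly(I:C). The time between these steps, and whether the 0 h cells were plated, are not given. The part of handling in the results was not tested. A list of 27 heat shock and stress genes held 0 calls, 0 unadjusted p under 0.05 (1.83% over all genes tested), and a median of 0.08. Hspa1b had 372 and 805 at 1 h, against 301 and 458 at 0 h, and Hmox1 had 7813 and 9642 at 1 h, against 7523 and 10425 at 0 h. The genes of 22 cytosolic ribosomal proteins were all but 1 above 0 in both experiments, as were 23.0% of all genes tested. The medians of the 22 were 0.09 in experiment 1 and 0.27 in experiment 2, with 0 calls. The probe sets in the brightest 10% had a median of -0.01 in experiment 1 and 0.06 in experiment 2. Centring the arrays on their medians moved all ratios by -0.12 in experiment 1 and by 0.11 in experiment 2. The part of scaling in these small shifts was not tested.

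Of 15 markers of DC on the array, 9 were bright enough to be tested. All 15 summed to 63766 to 69265 at 1 h and 57831 to 66813 at 0 h. Itgax (CD11c) had 19390 and 22255 at 1 h, against 18780 and 18932 at 0 h, and Cd74, H2-Ab1, Irf4 and Batf3 were well above the array medians. Flt3, a marker of DC, and Xcr1 and Siglech, of steady-state DC subsets, were dim. Csf1r and Lyz2 of monocytes and macrophages were bright too, the summed signal of 12 such markers being 105068 to 136515 at 1 h and 100149 to 109411 at 0 h. The 10 markers of neutrophils summed to 20384 to 33484 at 1 h and 19845 to 26119 at 0 h. Erythroid cells and platelets had 7 markers, which summed to 38867 to 43592 at 1 h and 35055 to 37555 at 0 h. The 10 markers of T and NK cells summed to 294 to 360 at 1 h and 371 to 383 at 0 h. At 1 h the sums were 1354 to 1765 for B cells and 657 to 897 for stromal cells. For mast cells, basophils and eosinophils the sum at 1 h was 517 to 519. In bulk samples fewer cells of a type and less RNA per cell cannot be told apart, and the part of such cells in the results was not tested.

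The genes that rose at 1 h took different courses afterwards. All later times are set against the same 0 h arrays, so the levels are given side by side without a test. Of the 12 probe sets, 8 had their highest mean level at 1 h and 4 at 12 h. Of the 54 bright members, 22 were highest at 1 h, 5 at 3 h, 4 at 6 h, 21 at 12 h and 2 at 24 h, and the choice of members by their level at 1 h favours the first of these counts.

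Cxcl1 was the plainest early peak. Starting at 789 and 443 (0 h), it stood at 6359 and 2733 (1 h), 1281 and 560 (3 h), 789 and 575 (6 h), 752 and 338 (12 h) and 223 and 217 (24 h). By 6 h experiment 1 was back at its level of 0 h. Cxcl2, by contrast, was still at 11923 and 8494 at 3 h, above both 0 h arrays, and had dropped to 444 and 186 by 24 h. Nfkbiz stood at 1316 and 515 (3 h), 1865 and 735 (6 h), 1201 and 364.5 (12 h) and 189 and 59.7 (24 h). A lower second maximum stood at 6 h in both experiments and the level at 24 h was below that of 0 h.

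Tnf and Tnfaip3 had a dip as well. Tnf stood at 5245 and 4445 (3 h), 9257 and 8454 (6 h) and 772 and 350 (24 h). Tnfaip3 (1433699_at) stood at 7753 and 7111 (3 h) and 12643 and 10122 (12 h), and Tnfsf9 at 334 and 659 (3 h) and 632 and 958 (12 h). In each of these genes both experiments were lower at 3 h than at 1 h.

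Il6, Mir155hg and Cxcl10 had their highest mean later than 1 h. Il6 stood at 2970 and 515 (3 h), 4463 and 1028 (6 h), 6798 and 878 (12 h) and 410 and 183 (24 h). Experiment 1 was highest at 12 h, while experiment 2 was lower at 3 h and close to its level of 1 h again at 6 h. Mir155hg stood at 1279 and 211 (3 h), 2063 and 384 (6 h) and 1730 and 545 (12 h). Cxcl10 stood at 20569 and 20371 (3 h) and 27950 and 36110 (12 h), so its level at 1 h was a small part of what came later. Ifit1, with 402 and 187 at 1 h, had 13477 and 11869 at 3 h.

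**Figure D5:**
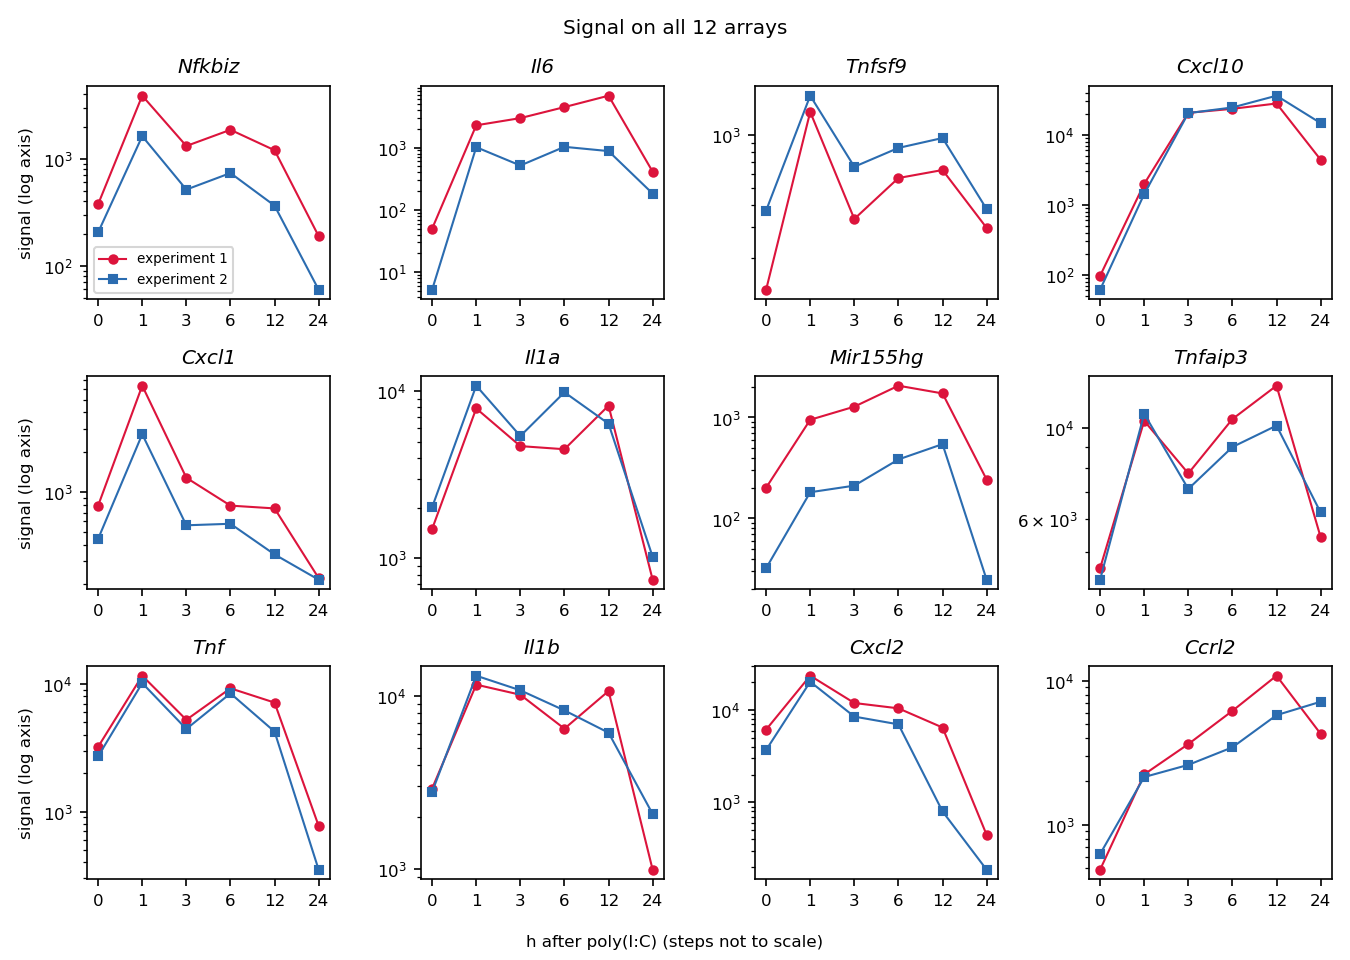
Signal on all 12 arrays (vertical log axis, scaled for each gene) over the 6 times after poly(I:C), 1 line per experiment, for the 9 genes that rose at 1 h and for Il1b, Cxcl2 and Ccrl2. Cxcl1, Cxcl2, Nfkbiz, Tnfsf9, Tnf and Il1b peak at 1 h in both experiments, while Cxcl10, Mir155hg and Ccrl2 are higher at 12 h than at 1 h in both.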

How the data were processed

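Bone marrow-derived DC were profiled on Affymetrix Mouse 430 2.0 arrays at 6 times after poly(I:C) in 2 experiments, 12 arrays in all. The deposited values are MAS5.0 signal intensities on a linear scale, which the authors scaled on each array to a trimmed mean of 500 (2% left out at each end); the software version is not given in the sources used here. Signal scaled this way corrects no intensity-dependent difference between arrays, and MAS5.0 gives unsteady ratios for dim probe sets.

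Of 45101 probe sets, 64 are controls and were dropped. GEO's platform annotation gives 1 gene symbol to 34945 of the 45037 others, several to 932 and none to 9160. Median signals were 70.9 to 91.4.

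Log2(signal + 16) was fitted with limma 3.58.1 (R 4.3.3) on all 12 arrays, which share one estimate of the spread, with terms for time and experiment (the replicate block), empirical Bayes with an intensity trend, and 5 residual and 5.24 prior degrees of freedom. The 22519 probe sets with a mean signal at or above the median were tested, with Benjamini-Hochberg adjustment over all of them at 0.05. The text says that a gene rose only where it passed. The experiments pair the arrays by the methods of the study, and the deviations of its arrays from the time means had correlations of 0.256 to 0.66 (15 pairs of times, across probe sets). With 1 mouse per experiment, p-values measure the spread between these arrays.

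Lists used 1 probe set per gene, that with the highest mean signal. Genes are named if called, if among the 25 largest rises or 10 lowest ratios in both experiments among the probe sets tested, if in a list of immediate-early genes, NF-kB genes, cytokines, chemokines, interferons or feedback inhibitors, if among the 4 smallest p of another list, or if at the 2-fold limit; a few others were chosen after their values were seen. The members and lists were chosen with earlier results of these data known. Markers of B cells, mast cells, basophils and eosinophils, neutrophils, erythroid cells and platelets and stromal cells gave 0 calls. Symbols with no probe set in the annotation are not reported here. Motifs were searched in Python 3.11.15 with pandas 2.3.3, and figures were drawn with matplotlib 3.10.9. The fit was tested on data simulated from the fitted model (5 runs, 100 probe sets changed per size, 22519 probe sets, 6.5% of calls false). Alternatives were other pseudocounts, filters and scalings, no block, no trend, fewer arrays and each array left out.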

Additional observations from a re-analysis of the deposited data

How the results depend on the processing

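The count of 12 probe sets higher at 1 h was 10 to 12 with other pseudocounts, filters and scalings. It was 0 with no replicate block, 3 with no intensity trend and 90 with only the 4 arrays at 1 h and 0 h, of which 12 were shared. It ranged from 2 to 31 when single arrays were dropped: 4 without either 0 h array, 2 without the 1 h array of experiment 1, and 31 and 29 without the 24 h arrays of experiments 1 and 2. Where this leaves 1 array at a time, that array is assumed to vary like the others. Il6 and Nfkbiz were called in each of these fits but the one with no block. Probe sets lower numbered 12 with only the 4 arrays and 0 under every other setting, each array left out included (75 lower and 100 higher at an unadjusted p under 0.05 with no block). Listed genes called higher numbered 8, 0 with no replicate block, 2 with no intensity trend, 30 with only the 4 arrays, and 2 to 14 with 1 array left out. The cause of these differences was not tested.

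Counts by the 2-fold limit depended on dim signals. With 4 and 64 added in place of 16, probe sets higher in both experiments numbered 867 and 31, and lower ones 735 and 7. They numbered 57 and 28 where the brighter array had to be at or above its median, 54 and 22 where the mean signal had to, 56 and 25 where the mean of the 8 later arrays had to (chosen after seeing the data), and 200 and 167 where both 1 h arrays had to be 2-fold beyond both 0 h arrays. The correlation of the ratios over all probe sets was 0.0024, and -0.0035 and 0.033 with 4 and 64 added, 0.0024 with arrays centred on their median, 0.011 after quantile normalization, 0.054 where the brighter of both arrays reached its median and 0.052 where the mean signal was. Of the values of named genes under the alternatives, 898 kept their side of the threshold, 76 lost the call, 37 gained it and 0 changed direction. List medians moved by under 0.1 in 410 of 441 cases.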

Other observations

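Some bright genes differed between the experiments by more at 0 h than at 1 h. Vapb, of a protein of the endoplasmic reticulum, had 1601 and 1961 at 1 h in experiments 1 and 2, against 177 and 1093 at 0 h. Rab5c, of a GTPase of early endosomes, had 1484 and 1938 at 1 h, against 310 and 1170 at 0 h. E2f5, of a transcription factor of the cell cycle, had 1157 and 1256 at 1 h, against 165 and 1499 at 0 h, so that the log2 ratios were 2.69 and -0.25. Of these genes the arrays at 1 h were close to each other and the 0 h array of experiment 1 was low. Malat1, a long noncoding RNA of the nucleus, had 3774 and 1879 at 1 h, against 2163 and 3582 at 0 h, with ratios in opposite directions. These genes were chosen, after their values were seen, among those with the largest gaps between experiments, and the gaps were not tested.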
